A study of Arabidopsis thaliana and Oryza sativa and Cucumis sativus with 30 samples.

Results

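The genes described here are 10 aquaporins of Arabidopsis thaliana, taken by their locus identifiers from every gene listed in any of the 3 Arabidopsis tables of the series, 33550 in all. They are the plasma membrane intrinsic proteins PIP1-1 (AT3G61430), PIP1-2 (AT2G45960), PIP1-3 (AT1G01620), PIP2-1 (AT3G53420), PIP2-2 (AT2G37170), PIP2-4 (AT5G60660) and PIP2-7 (AT4G35100), and the tonoplast intrinsic proteins TIP1-1 (AT2G36830), TIP1-2 (AT3G26520) and TIP2-3 (AT5G47450). All 10 were listed in all 3 tables, and each passed the filter on low values of the rhd6 comparison. Names are in the hyphenated form of protein databases. PIP1-3 lies on chromosome 1, PIP1-2, PIP2-2 and TIP1-1 on chromosome 2, PIP1-1, PIP2-1 and TIP1-2 on chromosome 3, PIP2-7 on chromosome 4, and PIP2-4 and TIP2-3 on chromosome 5. No annotated gene overlapped any of them in RefSeq's annotation of TAIR10.1.

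The study sequenced RNA of root cells in 30 libraries, of which the 12 from Arabidopsis are used. Epidermal cells were sorted from the root hair mutant rhd6 and from the wild type, 3 libraries each, and both groups carried WER::GFP, a reporter of the epidermis whose promoter is also active in the lateral root cap. Whole root hairs, freed by freezing in liquid nitrogen and collected through a sieve, gave 3 libraries. Hair cells sorted from COBL9::GFP plants, wild type per the sample titles, gave 3 more, called A, B and C here in the order of their columns. COBL9 is expressed in growing root hair cells. All groups had the variety label Columbia and were grown at 22 °C under constant light for 4 to 5 days, and root tips were pooled before digestion and sorting. Which allele of rhd6 was used is not stated in the labels.

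Aquaporins are membrane channels that work as tetramers, with a water pore in each subunit. PIPs sit mostly in the plasma membrane and TIPs in the tonoplast, the membrane of the vacuole, so that together they help set how fast water enters a root cell and its vacuole. PIP2 proteins conduct water strongly when expressed alone in frog oocytes, whereas many PIP1 proteins reach the plasma membrane only in mixed tetramers with PIP2 partners. Root hairs and their neighbours in the epidermis are the outermost cells on the path of water into the root.

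The 6 WER::GFP libraries held 10562137 to 23110648 reads in listed genes, and no aquaporin of the 10 had fewer than 2121 reads in any of them. RHD6, the mutated gene, was read at 1.25, 0.940 and 2.0 normalized CPM in rhd6 libraries 10018, 10019 and 9519, against 74.3, 75.5 and 85.4 in wild-type libraries 8955, 9483 and 9489 (log2 fold change -5.07 ± 0.21 SE, limma adjusted p = 9.73e-05). Normalized CPM are read counts divided by library size and scaled further by the authors. The 7 hair cell markers (RHD6, RSL4, COBL9, EXPA7, LRX1, PRP3 and RHS18) all fell in rhd6 in limma, with log2 fold changes of -3.31 to -5.07, and the non-hair markers GL2 (-0.09) and WER (0.46) did not pass. In bulk samples fewer cells of a type and less RNA per cell cannot be told apart.

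None of the 10 aquaporins passed the test between rhd6 and wild-type epidermis. limma on log2(normalized CPM + 1), with Benjamini-Hochberg adjustment over 17575 tested genes, called 0 of 10, and 0 had an unadjusted p below 0.05. Of all tested genes, 4.12% passed that threshold, 3.26% as lower and 0.859% as higher in rhd6, and 17.1% had an unadjusted p below 0.05. edgeR and DESeq2 on recovered reads called 0 of the 10 as well, with backgrounds of 3.78% and 7.67%. In the authors' deposited table their FDR ran from 0.432 to 0.990, where 6.67% of all genes had an FDR below 0.05. Fitted log2 fold changes of rhd6 over wild type were negative for 7 and positive for 3, with a median of -0.35, against 0.04 over all tested genes. In edgeR on recovered reads that median was -0.19, against 0.07 over all tested genes. All 10 of the 95% intervals in limma included 0. They ran from -1.99 to 0.88 for TIP1-1, from -0.83 to 2.02 for PIP2-1 and, at the narrowest, from -1.57 to 0.43 for PIP1-2.

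**Figure D1:**
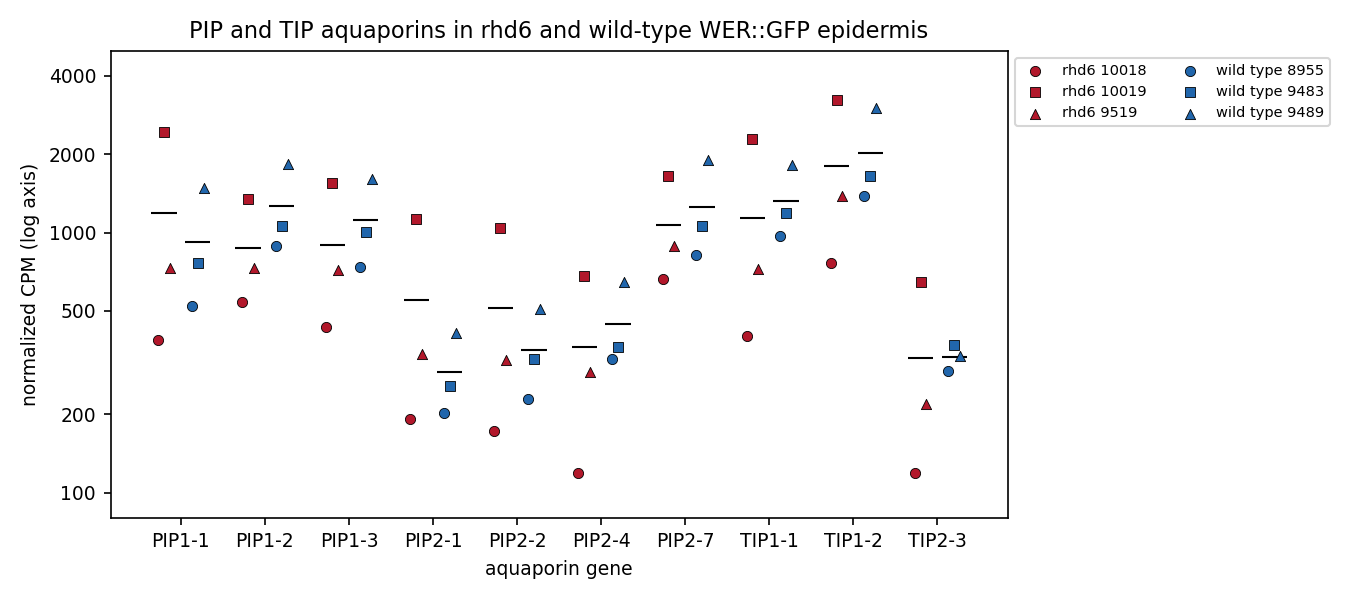
Normalized CPM (log axis) of the 10 aquaporins in the 3 rhd6 libraries (red, left) and the 3 wild-type libraries (blue, right) of WER::GFP epidermis, 1 point per library and a bar at the mean. The rhd6 groups are spread from library 10018 at the bottom to 10019 at the top for all 10 genes, and they overlap the wild-type group for all 10.

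Among the PIP1 genes, PIP1-1 was read at 387, 2435 and 729 normalized CPM in rhd6 libraries 10018, 10019 and 9519, against 521, 762 and 1488 in wild-type libraries 8955, 9483 and 9489. The high value of library 10019 and the low one of 10018 enclosed all 3 wild-type values (log2 fold change 0.07 ± 0.69 SE, limma adjusted p = 0.967). PIP1-2 stood at 539, 1342 and 729 in rhd6 and at 891, 1059.9 and 1836 in wild type. Its rhd6 libraries 10018 and 9519 lay below every wild-type library while 10019 lay among them (log2 fold change -0.57 ± 0.43, adjusted p = 0.525). PIP1-3 showed the same layout, with 432, 1549 and 716 in rhd6 and 734, 1005.5 and 1605 in wild type (log2 fold change -0.43 ± 0.51, adjusted p = 0.695).

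The PIP2 genes did not share a sign. PIP2-1, a strong water channel that also carries hydrogen peroxide, was read at 192, 1123 and 342 normalized CPM in rhd6 and 203, 257 and 412 in wild type. Library 10019 was above all wild-type values and 10018 below them (log2 fold change 0.59 ± 0.61, limma adjusted p = 0.651). PIP2-2, its nearest relative among the 10, had 172, 1039 and 323 in rhd6 and 228, 325 and 510.0 in wild type, with the same layout (log2 fold change 0.20 ± 0.63, adjusted p = 0.894). PIP2-4, expressed mainly in roots, had 119, 682 and 291 in rhd6 and 326, 363 and 643 in wild type, so that 10018 and 9519 lay below every wild-type library and 10019 above every one (log2 fold change -0.56 ± 0.60, adjusted p = 0.664). PIP2-7, a water channel whose removal from the membrane under salt stress is well described, had 663, 1654 and 885 in rhd6 and 818, 1058 and 1901 in wild type. Library 10018 lay below the wild-type values and the others among them (log2 fold change -0.25 ± 0.45, adjusted p = 0.806).

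All 3 tonoplast genes had negative fold changes that did not pass. TIP1-1, long used as a marker of the central vacuole, was read at 399, 2283 and 727 normalized CPM in rhd6 and 969, 1191 and 1818 in wild type. Its libraries 10018 and 9519 were below, and 10019 above, all wild-type values (log2 fold change -0.55 ± 0.62, limma adjusted p = 0.676). TIP1-2, its close relative, had 766, 3247 and 1383 in rhd6 and 1385, 1657 and 3011 in wild type, the same layout (log2 fold change -0.33 ± 0.57, adjusted p = 0.796). TIP2-3, which transports ammonia as well as water in yeast and oocyte assays, had 119, 646 and 219.9 in rhd6 and 293, 371 and 335 in wild type. Its 3 wild-type libraries lay within 1.27-fold of each other, the narrowest such range of the 10, and inside the range of rhd6 (log2 fold change -0.37 ± 0.55, adjusted p = 0.766).

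**Figure D2:**
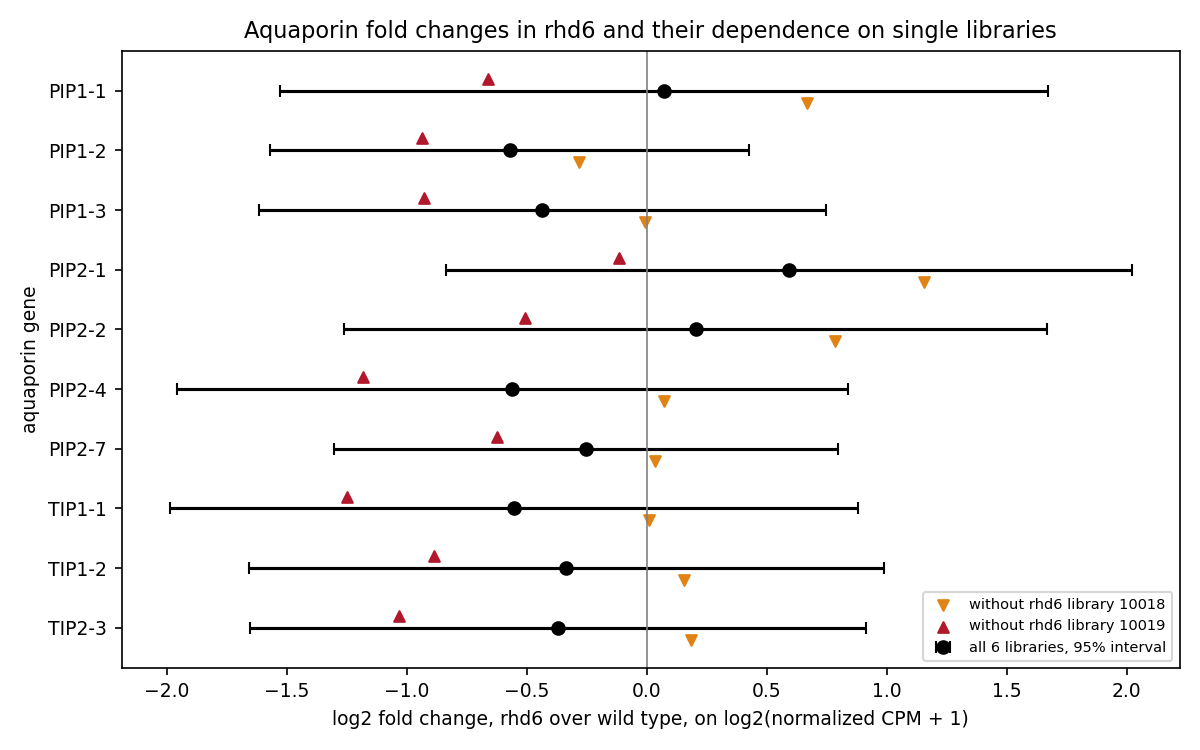
log2 fold changes of rhd6 over wild type on log2(normalized CPM + 1) with 95% intervals from limma on all 6 libraries (black), and the same fold change without rhd6 library 10019 (red) or without rhd6 library 10018 (orange). All 10 intervals cross 0, all 10 red points are below 0, and 8 of the 10 orange points are above it.

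The sign of most fold changes rested on single libraries. Without library 10019 all 10 were negative, from -0.12 (PIP2-1) to -1.25 (TIP1-1), and 4 had an unadjusted p below 0.05, against 22.1% of all tested genes in the same fit. The lowest limma adjusted p was 0.111 (TIP2-3). Without library 10018 only PIP1-2 (-0.28) and PIP1-3 (-0.01) were negative, PIP2-1 stood at 1.16, and 0 of the 10 had an unadjusted p below 0.05, against 17.3% of all tested genes. Leaving out wild-type library 8955 turned PIP1-1 (-0.27) and PIP2-2 (-0.07) negative, and leaving out 9489 put PIP2-7 at 0.09. None of these fits called any of the 10.

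The 10 genes moved together from library to library within each genotype. All 10 were highest in library 10019 and lowest in 10018 among rhd6 libraries, and all 10 were lowest in 8955 among wild-type libraries, of which 9489 was the highest for 9 and 9483 for TIP2-3. Their summed level was 3788, 16001 and 6346 normalized CPM in rhd6 libraries 10018, 10019 and 9519, and 6368, 8049 and 13559.9 in wild-type libraries 8955, 9483 and 9489. That sum was 0.433%, 1.43% and 0.655% of reads in listed genes in the rhd6 libraries and 0.630%, 0.808% and 1.31% in the wild-type libraries. The ratio of library 10019 to 10018 was between 2.49 (PIP1-2) and 6.30 (PIP1-1), with a median of 5.59, against a median of 1.2 over the 2245 tested genes with a mean of 100 or more, of which 4.50% reached 5.59. The ratio of wild-type library 9489 to 8955 had a median of 2.12 over the 10, against 0.96 over those genes, of which 2.0% reached 2.12. The likeness of each gene to the sum of the other 9 on the log2 scale was r = 0.83 (PIP2-1) to r = 0.995 (TIP1-2) over the 6 libraries, which share their depth and cell make-up among all genes, and is given as a description.

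**Figure D3:**
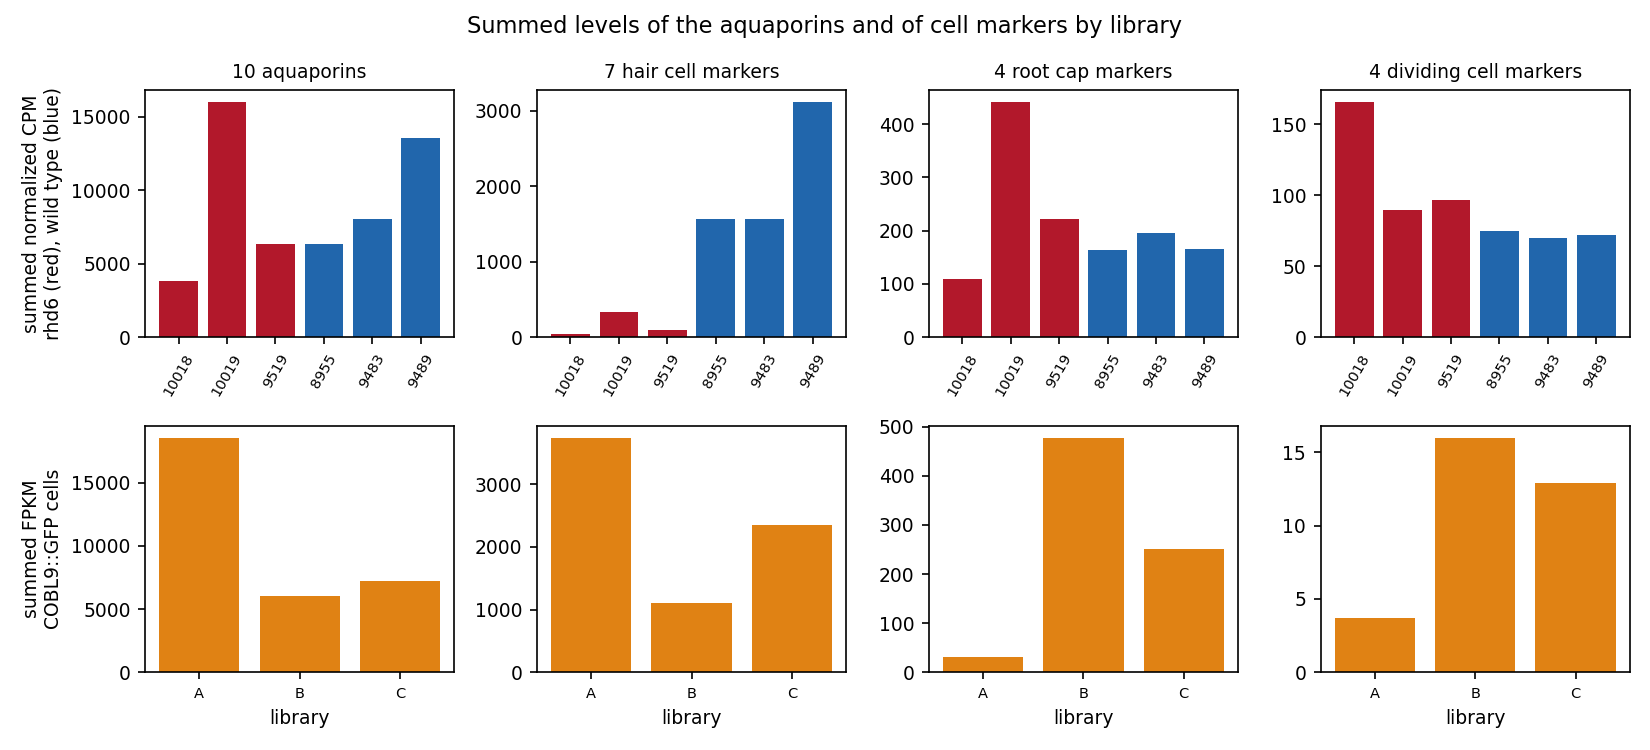
Summed levels of the 10 aquaporins and of 3 lists of cell markers in each library, in normalized CPM for rhd6 (red) and wild-type (blue) WER::GFP cells above and in FPKM for COBL9::GFP cells below. Libraries 10019, 9489 and A have the highest aquaporin sums of their groups, at 16001, 13559.9 and 18563.

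Some marker sums moved with the aquaporin sum between libraries and others did not. The 7 hair cell markers summed to 40.8, 326 and 97.5 normalized CPM in rhd6 libraries 10018, 10019 and 9519, and to 1571, 1567 and 3116 in wild-type libraries 8955, 9483 and 9489, so that the library with the highest aquaporin sum was also the highest in hair markers in both genotypes. The 4 root cap markers summed to 109.7, 441 and 222 in rhd6 and 163, 195 and 165 in wild type. Of these, SMB, BRN1 and BRN2 were highest in 10019 among rhd6 libraries, while FEZ was at 23.4, 16.5 and 15.9. The 5 endodermis markers summed to 21.1, 40.3 and 13.4 in rhd6 and 16.6, 14.7 and 16.4 in wild type. CASP1, CASP2, MYB36 and EN7 were highest in 10019 among rhd6 libraries, while SCR was at 15.1, 14.8 and 8.56. The 3 stele markers that were listed summed to 119, 266 and 166 in rhd6 and 162, 201 and 351 in wild type. AHK4 alone made up most of that sum, at 114, 257 and 162 in rhd6 and 159, 197 and 338 in wild type, while CESA7 and COBL4 were at 0.98 to 8.85. The cortex marker AT1G09750 was between 4.17 and 6.52 in all 6 libraries, and the cortex marker CO2 was not listed. The 4 markers of dividing cells ran the other way in rhd6, at 165, 89.3 and 96.3, and were 74.4, 70.0 and 72.0 in wild type. So did the summed non-hair markers GL2 and WER, at 207, 120 and 147 in rhd6, and at 136, 116 and 149 in wild type. In rhd6 GL2 was at 77.7, 57.0 and 50.9 and WER at 130, 62.8 and 95.8. The part of these cells in the aquaporin values was not tested.

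The make-up of the aquaporin pool differed less between libraries than its size. PIP2-1 made up 5.07%, 7.02% and 5.40% of the summed normalized CPM of the 10 in rhd6 libraries 10018, 10019 and 9519, and 3.19%, 3.19% and 3.04% in wild-type libraries 8955, 9483 and 9489. PIP2-2 made up 4.54%, 6.49% and 5.09% in rhd6 and 3.58%, 4.04% and 3.76% in wild type. Both shares were higher in every rhd6 library than in any wild-type library. PIP1-3 made up 11.4%, 9.68% and 11.3% in rhd6 and 11.5%, 12.5% and 11.8% in wild type, lower in every rhd6 library by a small margin. The shares of the other 7 overlapped between genotypes. The ratio to this pool did not overlap between the genotypes for 7.26% of tested genes. That is not a like background, because each of the 10 is part of the pool and moved with it. Among the 45 pairs of the 10, the ratio within the pair did not overlap between the genotypes for 19. Every pair with PIP2-1 was among these 19. Pairs share genes and are not separate observations, and no share for pairs of other genes was computed. The 4 PIP2 genes together stood at 0.843, 0.845 and 0.847 times the 3 PIP1 genes in rhd6 and at 0.733, 0.708 and 0.703 in wild type. This ratio within each library is not per length. Not all genes of the 2 classes went with it. The mean share of PIP2-4 was 4.00% in rhd6 and 4.79% in wild type, and that of PIP1-1 was 12.3% and 9.54%. The mean shares of PIP2-1, PIP2-2, PIP2-7, PIP1-2 and PIP1-3 went with the ratio, but not every library did. The share of PIP2-7 in rhd6 library 10019 (10.3%) was the lowest of the 6 libraries. That of PIP1-2 in rhd6 library 10018 (14.2%) was the highest of the 6. These shares were looked at after the values were seen and carry no test, and 3 libraries against 3 cannot give an exact permutation p below 0.1.

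**Figure D4:**
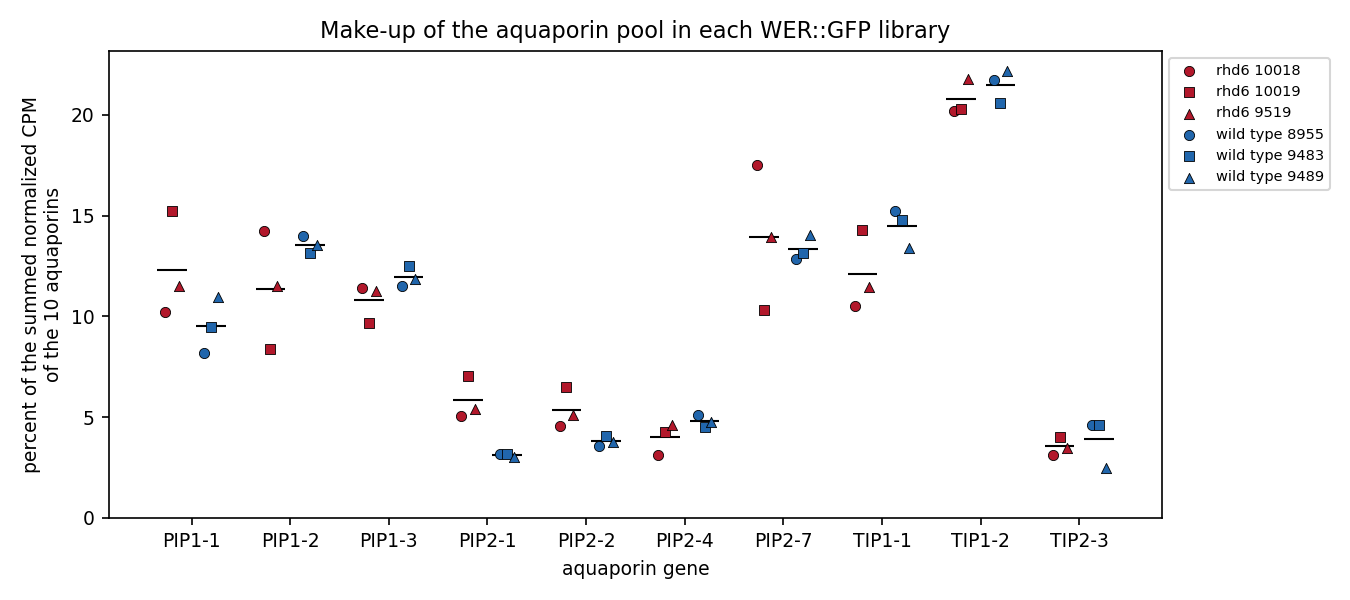
Share of each aquaporin in the summed normalized CPM of the 10, in percent, for the 3 rhd6 libraries (red, left) and the 3 wild-type libraries (blue, right), with a bar at the mean. PIP2-1 and PIP2-2 are higher in all 3 rhd6 libraries than in all 3 wild-type libraries, at means of 5.83% and 5.38% in rhd6 and 3.14% and 3.79% in wild type.

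Genes with the most similar pattern were found by the Pearson correlation with the summed level of the 10 on the log2 scale over the 6 libraries, among 13813 other genes with a mean of 5 or more. The 5 highest were PAH2, a phosphatidic acid phosphohydrolase, MAP3KA, a MAP kinase kinase kinase, and AT4G03610, AT4G16380 and AT1G50020, all with r of 0.997 to 0.999. PAH2 was read at 72.1, 144.7 and 92.4 normalized CPM in the rhd6 libraries and 90, 103 and 131 in the wild-type libraries, in the same order as the aquaporins but over a narrower range. AT4G03610 had 3.36, 24.6 and 7.23 in rhd6 and 6.70, 9.49 and 20.5 in wild type. A correlation of 0.9 or more was met by 789 genes.

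The rest of the family holds 25 other aquaporins, of which 15 were tested and 10 were not listed in the table. None of the 15 passed in limma, 1 had an unadjusted p below 0.05, and 8 fold changes were negative and 7 positive, with a median of -0.04. Among the other PIPs, PIP2-6 stood at 2.51, 3.20 and 6.21 normalized CPM in rhd6 and 11.2, 5.87 and 7.50 in wild type (log2 fold change -0.92 ± 0.33 SE, limma adjusted p = 0.215). PIP1-5 (0.34) and PIP1-4 (0.10) did not pass. PIP2-3 had 5.07, 98.5 and 5.01 in rhd6 and 17.2, 2.20 and 6.37 in wild type (log2 fold change 1.03). PIP2-3 is the next gene after PIP2-2 on chromosome 2, and their annotated coding sequences are 94.8% identical in RefSeq TAIR10.1, so reads between these genes are uncertain. The nearest aquaporin of every other of the 10 was between 76.2% (PIP2-4) and 87.6% (PIP1-1 and PIP1-2) identical.

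Of the other TIPs, TIP2-1 (-0.07), TIP2-2 (0.31), TIP4-1 (-0.12) and the seed aquaporin TIP3-1 (-0.35) did not pass in limma. TIP2-2 had the same library order as most of the 10, at 207, 1653 and 399 normalized CPM in rhd6 and 302, 416 and 576 in wild type. Among the nodulin-26-like NIPs and the small SIPs, which carry uncharged solutes such as boric acid or sit in the endoplasmic reticulum, NIP2-1 (0.40), NIP1-2 (0.54), SIP2-1 (-0.26) and SIP1-1 (-0.14) had the smallest p, and none passed. SIP1-1 was at 76.2, 121 and 96.2 in rhd6 and 104, 98.2 and 118 in wild type. Of the 15, 13 were highest in library 10019 among the rhd6 libraries.

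Proteins that move or remove aquaporins did not pass either, with 0 of 7 past the test in limma and 1 at an unadjusted p below 0.05. The list had 5 negative and 2 positive fold changes. RMA3, of the family of ubiquitin ligases anchored in the endoplasmic reticulum, had 8.23, 21.2 and 20.8 normalized CPM in rhd6 and 26.6, 29.8 and 31.2 in wild type. Its rhd6 values were all below the wild-type values (log2 fold change -0.87 ± 0.34 SE, limma adjusted p = 0.255). SYP61, a SNARE of the trans-Golgi network that acts in PIP2-7 traffic, was also lower in every rhd6 library, at 24.6, 27.9 and 24.8 against 32.4, 30.7 and 33.4 in wild type (log2 fold change -0.31, adjusted p = 0.371). TSPO, a membrane protein that takes PIP2-7 to the vacuole for breakdown, stood at -0.98 and RMA2 at -0.40. The groups did not overlap for 27.5% of all tested genes.

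In sieved root hairs of Arabidopsis all 10 aquaporins were listed, with 9 of them among the 419 highest of 14919 genes by mean FPKM, a level per transcript length and library size computed by the authors. FPKM is per length, so levels can be set between genes. TIP1-2 was the highest of the 10, at 1377, 1157 and 660.3 FPKM in libraries 1, 2 and 3, and ranked 62. PIP2-1 followed at 406, 1439.9 and 736 (rank 82) and PIP1-2 at 698, 1013 and 661 (rank 97). These 3 overlapped, and PIP1-2 was above PIP1-1 in every library without overlap.

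Below them, PIP1-1 had 360.3, 653 and 513 FPKM and PIP2-2 had 449.8, 503 and 399.7, the most even of the 10. TIP2-3 (647, 239 and 252) and PIP1-3 (249, 498 and 201) came next. PIP2-4 had 689, 155 and 82.1, and TIP1-1 had 449, 259 and 204, and neighbours in this stretch of the order overlapped. PIP2-7 was far below, at 4.09, 63.8 and 101 FPKM, and did not overlap TIP1-1 (rank 3148).

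Library 1 of the sieved hairs stood apart in other aquaporins and in seed genes. The seed tonoplast aquaporins TIP3-1 and TIP3-2 had 352 and 136 FPKM there, against at most 0.0424 in libraries 2 and 3. Seed storage and oil body genes, looked at after this was seen, were listed for 5 of 7, and they summed to 1908 FPKM in library 1, 0.173 in library 2 and 11.1 in library 3. The hair cell markers summed to 4983, 1077 and 1301 FPKM, and none of the 4 root cap markers was listed. The 3 stele markers that were listed (AHK4, SHR and APL) summed to 4.03, 120.0 and 56.5 FPKM in libraries 1, 2 and 3. Of that sum AHK4 held 4.02, 68.6 and 26.9. The 2 listed endodermis markers (SCR and CASP1) summed to 0, 54.3 and 7.83. The stele and endodermis sums were highest in library 2, as were PIP2-1, PIP2-2 and the 3 PIP1 genes. The sum of the 10 aquaporins was also highest there, at 5329, 5980 and 3809 FPKM. PIP2-4, TIP1-1, TIP1-2 and TIP2-3 were highest in library 1, and PIP2-7 in library 3. The 2 listed markers of dividing cells (CDKB2-1 and CDKB2-2) were also highest in library 3, with sums of 0, 8.49 and 50.9 FPKM. The part of seed RNA and of these other cells in the aquaporin values was not tested. Without library 1, PIP2-1 was the highest of the 10, at a mean of 1088 FPKM (rank 59), then TIP1-2 at 909 and PIP1-2 at 837, while PIP2-4 was at 119 (rank 1415) and PIP2-7 at 82.2 (rank 2143).

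In COBL9::GFP hair cells all 10 were marked as expressed in the authors' deposited table, as were 10924 of all 33550 listed genes. All 10 were among the 335 highest of these 33550 genes by mean FPKM, or the 779 highest without library A. TIP1-2 was again the highest, at 3736, 1552 and 1894 FPKM in libraries A, B and C (rank 16, or 30 without A). TIP1-1 had 3341, 1014 and 1206 (rank 29), and PIP2-7 had 2467, 804 and 972 (rank 48). This order was kept in each of the 3 libraries, although the ranges overlapped. PIP1-3 (2097, 606 and 717), PIP1-2 (2027, 560.2 and 724) and PIP1-1 (1836, 519 and 524) formed a middle group close to each other.

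The lower group was PIP2-4 (823, 309 and 367 FPKM), PIP2-2 (779, 274 and 285), TIP2-3 (963, 119.8 and 219.0) and PIP2-1 (493, 265 and 307, rank 335), whose ranges overlapped. All 10 were highest in library A and lowest in B. The ratio of A to the mean of the other libraries had a median of 2.90 over the 10, against 1.2 over 1434 genes with a mean of 100 or more, of which 2.30% reached 2.90. It was largest for TIP2-3 (5.69) and smallest for PIP2-1 (1.72). In the same libraries A, B and C the hair markers summed to 3742, 1111 and 2347 FPKM, the root cap markers to 31.6, 478 and 251, and the markers of dividing cells to 3.73, 16.0 and 12.9. The endodermis markers summed to 14.8, 2.52 and 10.08 and the stele markers to 98.2, 49.6 and 57.7, of which AHK4 held 92.1, 47.8 and 54.2. The non-hair markers GL2 and WER summed to 32.9, 24.4 and 24.5 FPKM. The part of the cells so marked in the aquaporin values was not tested. Without library A the first 7 kept their order, and TIP2-3 came last, at a mean of 169 FPKM (rank 779).

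**Figure D5:**
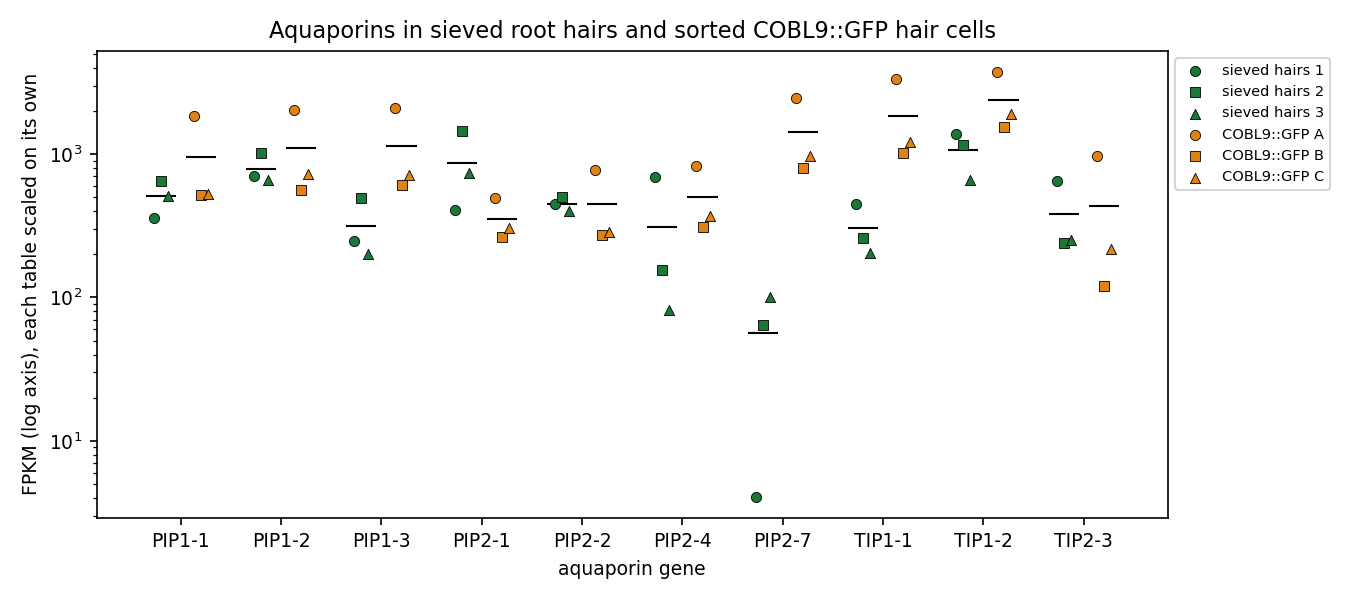
FPKM (log axis) of the 10 aquaporins in 3 libraries of sieved root hairs (green, left) and 3 of sorted COBL9::GFP hair cells (orange, right), with a bar at the mean. Each table was scaled on its own. PIP2-7 has means of 56.2 FPKM in sieved hairs and 1414 in COBL9::GFP cells.

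The hair tables were prepared and normalized separately, the sieved hairs with SMART-Seq v4 and the sorted cells with TruSeq after protoplasting, so their values are set side by side with no test. TIP1-2 was first of the 10 in both. PIP2-7 was last in sieved hairs and behind only TIP1-2 and TIP1-1 in COBL9::GFP cells, and it held 0.0767%, 1.07% and 2.64% of the summed FPKM of the 10 in sieved libraries 1, 2 and 3, and 13.3%, 13.3% and 13.5% in COBL9::GFP libraries A, B and C. TIP1-1 held 8.42%, 4.32% and 5.35% in sieved hairs and 18.0%, 16.8% and 16.7% in COBL9::GFP cells. PIP2-1 ran the other way, with 7.63%, 24.1% and 19.3% in sieved hairs and 2.65%, 4.40% and 4.25% in COBL9::GFP cells. In sieved hairs the shares of PIP2-1 and of PIP1-3 (4.68%, 8.32% and 5.28%) had the library order of the stele and endodermis marker sums given above. The hair marker and seed gene sums had the reverse order, as did the shares of TIP1-1 and TIP2-3. These are orders of 3 libraries. The part of these cells and of seed RNA was not tested. Shares did not overlap between the tables for 6 of the 10, PIP1-2 and PIP2-2 being also higher in sieved hairs and PIP1-3 lower. The same ratio to the pool did not overlap for 40.6% of the 14919 genes in both tables. Again each of the 10 is part of the pool, so this is not a like background. Method of preparation and cell fraction cannot be told apart here.

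Against the whole family, the 10 held 61.8%, 75.3% and 64.6% of the summed FPKM of all 35 aquaporins in sieved libraries 1, 2 and 3, and 78.0%, 68.5% and 72.8% in COBL9::GFP libraries A, B and C. Most of the rest came from a few genes. TIP2-2 had the highest mean of all aquaporins over the 3 sieved libraries, at 1776, 826 and 1226 FPKM, but in library 2 it was below PIP2-1, TIP1-2 and PIP1-2, and without library 1 its mean of 1026 was below that of PIP2-1 (1088). It had 1140.3, 198 and 287 in COBL9::GFP cells. PIP1-5 stood at 589, 745 and 423 in sieved hairs and at 738, 531 and 461 in COBL9::GFP cells. NIP1-1 was not listed in sieved hairs, whose table holds only genes with a mean of 3 FPKM or more, and had 734, 1100.0 and 808 in COBL9::GFP cells. TIP2-1 had 93.4, 10.2 and 11.1 in sieved hairs and 1475, 410.0 and 494 in COBL9::GFP cells. Of the 25 others, 14 were listed in sieved hairs and 10 were marked as expressed in COBL9::GFP cells. Of all 33550 genes, 14919 were listed in sieved hairs and 10924 were marked as expressed in COBL9::GFP cells.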

How the data were processed

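The members and lists were chosen with earlier results of these data known. The submitters' processing notes name Cufflinks, edgeR, HTSeq 0.6.1, TopHat2 (2.0.3, 2.0.9) and CASAVA 1.8.2 without saying what each did, and the annotation was TAIR10 per the labels. Neither the use of strand in counting nor the handling of reads from paralogs is stated there.

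Per the file headers, the rhd6 table deposited by the authors has a signal in normalized CPM, beside the authors' own log2 fold changes, p-values, FDR and other columns. Every value in it was a multiple of 1 read (100% within 0.01 of a read), so reads were recovered. Both hair tables give FPKM, per the file headers from the authors, with unknown depth. Tables of other species were not used here. The numbers in the column names show a library's group but not its replicate. The series' design text calls the replicates biological.

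Counts would have been tested with edgeR, but the table holds normalized values. limma 3.58.1 (R 4.3.3) therefore tested log2(value + 1), with a trend of variance on level, among genes reaching 1 in 3 or more libraries, two-sided, with adjusted p below 0.05. The added 1 shrinks the fold changes of weakly read genes. Alternatives were edgeR 4.0.16 and DESeq2 1.42.0 on recovered reads, other pseudocounts and filters, no scaling, no trend and each library left out. The orders without a hair library and the medians by setting were added after the data were seen. The fit was tested on simulated data. Named genes were the 10, RHD6, from each other list the 4 with the smallest p, and the 5 most alike genes. Others were named after their values were seen. RefSeq TAIR10.1 gave the names of 69 of 72 listed genes, their neighbours and the coding sequences, aligned globally with Biopython 1.88. No sample was dropped or imputed.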

Additional observations from a re-analysis of the deposited data

How the results depend on the processing

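The count of called aquaporins was 0 of 10 in limma and under each of the 15 alternatives run, edgeR and DESeq2 among them, with adjusted p from 0.111 upwards. Of 150 fold changes refitted for the 10, 11 reversed in sign, all of them when 1 library was left out. Leaving out each library gave log2 fold changes from -0.66 to 0.67 for PIP1-1, -0.94 to -0.27 for PIP1-2, -0.93 to -0.01 for PIP1-3, -0.12 to 1.16 for PIP2-1, -0.51 to 0.79 for PIP2-2, -1.18 to 0.074 for PIP2-4, -0.62 to 0.090 for PIP2-7, -1.25 to 0.0090 for TIP1-1, -0.89 to 0.15 for TIP1-2 and -1.03 to 0.19 for TIP2-3. The lowest of each came without rhd6 library 10019, and the highest without 10018, except for PIP1-2 and PIP2-7, where it came without wild-type library 9489. Without wild-type library 8955, PIP1-1 stood at -0.27 and PIP2-2 at -0.07, and without 10018 PIP2-7 stood at 0.036. The 9 other alternatives kept all signs, but edgeR put PIP2-1 at 0.93, PIP1-1 at 0.36, PIP2-2 at 0.53, PIP2-4 at -0.29, TIP1-1 at -0.22, TIP1-2 at -0.17 and TIP2-3 at -0.02, each over 1.5 times from limma's value. The median of the 10 was -0.19 in edgeR, -0.20 in DESeq2 and from -0.91 without rhd6 library 10019 to 0.11 without 10018, against -0.35. The count over all genes was 724, against 1348 in DESeq2, 431 with only genes averaging at least 5, and 264, 222, 239 and 349 without wild-type libraries 8955, 9483 and 9489 or rhd6 library 9519. The cause of these differences was not tested. The median percentile of the 10 among listed genes was 99.8 in COBL9::GFP cells, 99.5 to 99.8 when each library was left out and 99.4 among genes at 3 FPKM or more, and 98.1 in sieved hairs, 98.0 to 98.3 when each was left out. No paired analysis was possible because the columns of the rhd6 table carry library numbers and not the replicate numbers of the labels. With at least 2121 reads per aquaporin and library, counting error was small beside the spread between the 3 libraries of a group.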
